A study of Drosophila melanogaster with 10 samples.

Results

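The Su(Hw) by Pita interaction asks whether the change in gene expression with both mutations together differs from the sum of the changes with each alone, on the log2 scale and on the background of a CTCF mutation. It rests on 8 of the 10 RNA sequencing libraries of the series, 2 for each of 4 genotypes of *Drosophila melanogaster*, chosen by the genotype in the library title. The triple mutant carries dCTCFΔCP, Su(Hw)Δ114 and PitaΔCP1, the CTCF Su(Hw) mutant carries dCTCFΔCP and Su(Hw)Δ114, the CTCF Pita mutant carries dCTCFΔCP and PitaΔCP1, and the CTCF mutant carries dCTCFΔCP alone. All were third-instar larvae of the strain y1w1118 kept at 25 °C, with RNA taken from 100 mg of whole larvae, and the wild-type libraries are outside the contrast. Because each of the 4 genotypes carries the CTCF mutation, and genotypes with Su(Hw) or Pita mutated and CTCF intact are not analysed here, the values hold for that background alone. Neither the sex of the larvae nor how many animals were pooled is given in the sources used here.

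CTCF, Su(Hw) and Pita are DNA-binding proteins with arrays of zinc fingers that mark insulators and boundaries of chromatin domains in flies. Each contacts CP190, a protein that such factors bring to insulators and promoters, and the alleles used here change the parts of the proteins that make this contact, per the design text. Su(Hw) is best known from the gypsy insulator and from the silencing of neuronal genes in the ovary, and Pita from boundaries in the bithorax complex.

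Of the 17735 genes in the files, 10585 had enough reads to be tested. The interaction is the log2 level in the triple mutant minus that in each double mutant plus that in the CTCF mutant, so that a value above 0 means a level in the triple mutant higher than the separate changes add up to, and a value below 0 a lower one. A gene is called where the adjusted p of the quasi-likelihood F-test of edgeR is under 0.05. Levels are given as CPM, read counts scaled to a common library size, and a single read stood for 0.0939 to 0.297 CPM.

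The labels were set against the mutated genes. The su(Hw) mRNA stood at 583 and 387 CPM in triple, 486 and 501 CPM in CTCF Su(Hw), 23.7 and 24.5 CPM in CTCF Pita and 22.3 and 21.6 CPM in CTCF mutants, and so was high in all 4 libraries labelled as Su(Hw) mutant and low in the others. The pita mRNA stood at 222 and 167 CPM in triple, 20.8 and 17.3 CPM in CTCF Su(Hw), 171 and 154 CPM in CTCF Pita and 29.7 and 18.2 CPM in CTCF mutants, high in the 4 libraries labelled as Pita mutant. Neither had a called interaction (-0.16, adjusted p = 0.685, for su(Hw) and 0.59, adjusted p = 0.174, for pita). A genotype labelled as Su(Hw) or Pita mutant thus differs in both the allele and the mRNA level of that gene. The effects of these cannot be told apart here. The w mRNA stood at 19.98 and 19.97 CPM in triple and 29.6 and 28.9 CPM in CTCF Su(Hw) mutants. It had 3.77 and 2.25 CPM in CTCF Pita mutants and 0.297 and 0.263 CPM, 1 read each, in CTCF mutants. The interaction of w was called lower (-3.88, adjusted p = 0.00104). All libraries are labelled with the strain y1w1118, and the cause of these differences in w was not tested. The CTCF mRNA had 27.1 and 18.2 CPM in triple, 11.3 and 11.1 CPM in CTCF Su(Hw), 21.3 and 21.4 CPM in CTCF Pita and 8.32 and 5.79 CPM in CTCF mutants, and its interaction of -0.57 was not called (adjusted p = 0.19). Without triple 1, su(Hw) (-0.53) and CTCF (-0.95) were called lower.

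Libraries held 5670793 to 8220126 reads assigned to genes. Several measures of the libraries moved with the contrast. Reads that map to several places made up 55.2% and 60.2% of all reads in triple, 50.9% and 51.2% in CTCF Su(Hw), 54.6% and 53.3% in CTCF Pita and 65.5% and 63.3% in CTCF mutants, an interaction of 17.1 percentage points. Mitochondrially encoded genes made up 11.7% and 18.1% of assigned reads in triple, 8.67% and 8.80% in CTCF Su(Hw), 18.7% and 12.9% in CTCF Pita and 34.6% and 24.2% in CTCF mutants. Their part in the results was not tested beyond the fits named below. Both CTCF Su(Hw) libraries differed from each other by little more than counting error (chi-square per degree of freedom 1.82, against 28.5 to 71.1 in the other groups) and may come from 1 RNA sample. Libraries are named by genotype and replicate number below, as in CTCF 1.

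The interaction was called for 4627 genes, 43.7% of those tested. It was above 0 for 2457 of them (23.2%) and below 0 for 2170 (20.5%). The median over all tested genes was -0.02, and 5% of genes lay below -3.09 and 5% above 2.04. Values beyond 3 in size were mostly negative, with 510 called genes below -3 and 139 above 3. The number of calls depended strongly on 1 library measure. With the share of multimapping reads as a covariate, an alternative chosen after seeing the data, 21 genes were called. Membership in a group accounts for 92.6% of the variance of that share over the 8 libraries, so the fit leaves little of the contrast to estimate, and the share and the genotypes cannot be told apart in these libraries. With the CTCF Su(Hw) libraries summed into 1, 3108 genes were called. Calls numbered 3037 without CTCF Su(Hw) 1 and 2918 without CTCF Su(Hw) 2. Under scaling by library totals the median of all genes moved to -1.45, with 316 genes called higher and 6336 lower, and changes are described relative to the median gene.

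A set of 7 genes was called in the same direction in all 22 alternative fits, the multimapping covariate included. They were picked out for that after their values were seen. The lipase gene Lip3 (FBgn0023495; dm6 3R, 13370240 to 13371904) stood at 325 and 368 CPM in triple, 1.22 and 1.26 CPM in CTCF Su(Hw), 0.126 and 0.880 CPM in CTCF Pita and 1.78 and 1.84 CPM in CTCF mutants. Both libraries of the triple mutant were far above all others, which held 1 to 13 reads each. The nearest tested gene is CG34309, 726 bases away, with a mean of 6.50 CPM in the triple mutant, 0.0953 CPM in the CTCF Su(Hw) mutant and no reads in the other 2 genotypes. Adding the separate changes gives 0.344 CPM for the triple mutant, where 346 ± 30.2 CPM (SD, n = 2) were measured (interaction 9.81, SE 0.82, adjusted p = 0.000137, and 8.37 to 11.74 over the alternatives).

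Arc1 (FBgn0033926; dm6 2R, 14357927 to 14360297), which encodes a capsid-forming protein derived from a retrotransposon Gag gene, had 5089.8 and 5616 CPM in triple, 215 and 239 CPM in CTCF Su(Hw), 731 and 863 CPM in CTCF Pita and 1319 and 1110.0 CPM in CTCF mutants. Its level was lowest in the CTCF Su(Hw) mutant and highest in the triple mutant, and no groups overlapped. The expectation for the triple mutant was 149 CPM and the measured mean 5353 ± 372 CPM (SD, n = 2), with an interaction 5.17, SE 0.31, adjusted p = 1.47e-05. The next gene along the chromosome is its paralog Arc2, 1627 bases away, with an interaction 1.96, SE 0.29, adjusted p = 0.000757. Arc2 stood at 23.6 and 25.2 CPM in triple, 6.39 and 5.32 CPM in CTCF Su(Hw), 8.93 and 8.02 CPM in CTCF Pita and 7.43 and 8.42 CPM in CTCF mutants, so that it too was highest in the triple mutant, though its call was lost under library totals (adjusted p = 0.252).

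CG1468, CG15254 and CG17224 were lowest in the CTCF Su(Hw) mutant and higher in the triple mutant. CG1468 (FBgn0030157; dm6 X, 9878422 to 9879279) had 78.0 and 73.6 CPM in triple, 4.70 and 4.16 CPM in CTCF Su(Hw), 85.4 and 69.5 CPM in CTCF Pita and 107 and 122 CPM in CTCF mutants. The interaction of CG1468 was 4.66 (SE 0.25, adjusted p = 7.25e-06). The CTCF Su(Hw) mutant lay far below every other library, while the triple mutant overlapped the CTCF Pita mutant. CG15254 (FBgn0028949; dm6 2L, 15613905 to 15614828) had 95.9 and 119.6 CPM in triple, 6.39 and 6.57 CPM in CTCF Su(Hw), 34.4 and 47.5 CPM in CTCF Pita and 131 and 116 CPM in CTCF mutants. The interaction of CG15254 was 5.64 (SE 0.29, adjusted p = 6.21e-06). Its tested neighbours on both sides were also called higher, CG15255 with an interaction of 2.63 (adjusted p = 0.000517) and CG15253 with 3.20 (adjusted p = 0.00086). CG17224 (FBgn0031489; dm6 2L, 3016441 to 3018308) had 41.5 and 42.8 CPM in triple, 9.30 and 9.37 CPM in CTCF Su(Hw), 14.5 and 17.2 CPM in CTCF Pita and 113 and 101 CPM in CTCF mutants (interaction 4.92, SE 0.24, adjusted p = 3.94e-06), and neither of its neighbours was called.

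CG11300 and CG5966 were set apart by the CTCF mutant. CG11300 (FBgn0034901; dm6 2R, 23751915 to 23752495) stood at 15.0 and 13.1 CPM in triple, 2.82 and 2.61 CPM in CTCF Su(Hw), 10.8 and 12.5 CPM in CTCF Pita and 758 and 529 CPM in CTCF mutants. Every other genotype lay far below the CTCF mutant, and the triple mutant lay just above the CTCF Pita mutant, against an expectation of 0.0492 CPM. The interaction of CG11300 was 8.15 (SE 0.34, adjusted p = 2.05e-06). Its neighbours CG13560 (3.96, adjusted p = 0.000253) and CG5532 (1.69, adjusted p = 0.00201) were called in the same direction. CG5966 (FBgn0029831; dm6 X, 5988791 to 5992640) ran the other way, with 110.5 and 140.4 CPM in triple, 82.6 and 79.7 CPM in CTCF Su(Hw), 109 and 101 CPM in CTCF Pita and 8.62 and 7.37 CPM in CTCF mutants. It was low in the CTCF mutant and at a similar high level in the other 3 genotypes, below the 1066 CPM expected in the triple mutant. The interaction of CG5966 was -3.09 (SE 0.26, adjusted p = 0.00016).

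**Figure D1:**
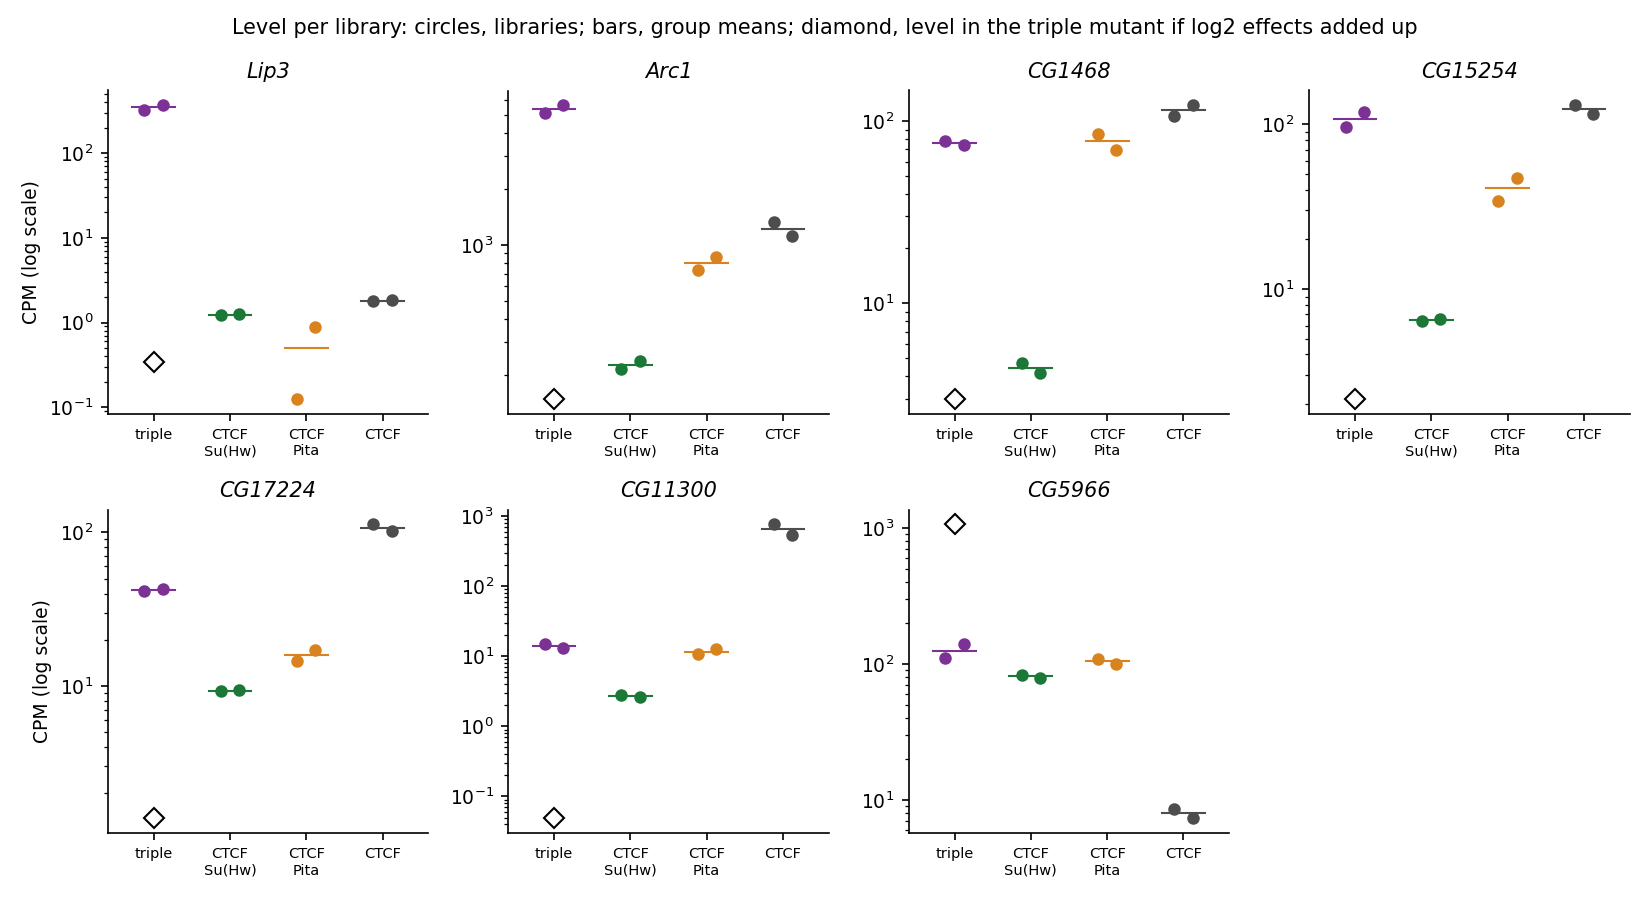
CPM on a log scale for the 7 genes called in every alternative fit, per library (circles) and group mean (bars), in the triple, CTCF Su(Hw), CTCF Pita and CTCF mutants from left to right. The diamond is the level of the triple mutant if the log2 effects added up: it lies below the measured values for 6 genes, such as Lip3 at 0.344 CPM, and above them for CG5966.

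The interaction can be split into the same mutation added on either background, and the pair of steps shares no library. The Su(Hw) pair and the Pita pair do use the same 8 libraries. Both steps on the CTCF mutant are measured against the same CTCF libraries, so the pairs are not independent of each other. A step holds both the mutation and the higher mRNA level of the mutated gene. For Su(Hw), 1597 genes (15.1%) were called in the step on the CTCF Pita mutant, against 4203 (39.7%) on the CTCF mutant. For Pita, 2185 genes (20.6%) were called in the step on the CTCF Su(Hw) mutant, against 4461 (42.1%) on the CTCF mutant. Few genes moved the same way on both backgrounds. For Su(Hw), 145 genes rose and 81 fell in both steps, while 380 rose on the CTCF Pita and fell on the CTCF background, and 261 fell on the CTCF Pita and rose on the CTCF background. For Pita, 141 rose and 283 fell in both steps, while 471 rose on the CTCF Su(Hw) and fell on the CTCF background, and 242 did the reverse. Most genes called in a step on the CTCF mutant were not called in the step on the double mutant (1838 lower and 1498 higher for Su(Hw), 1653 lower and 1671 higher for Pita), which does not show that they stayed as they were.

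**Figure D2:**
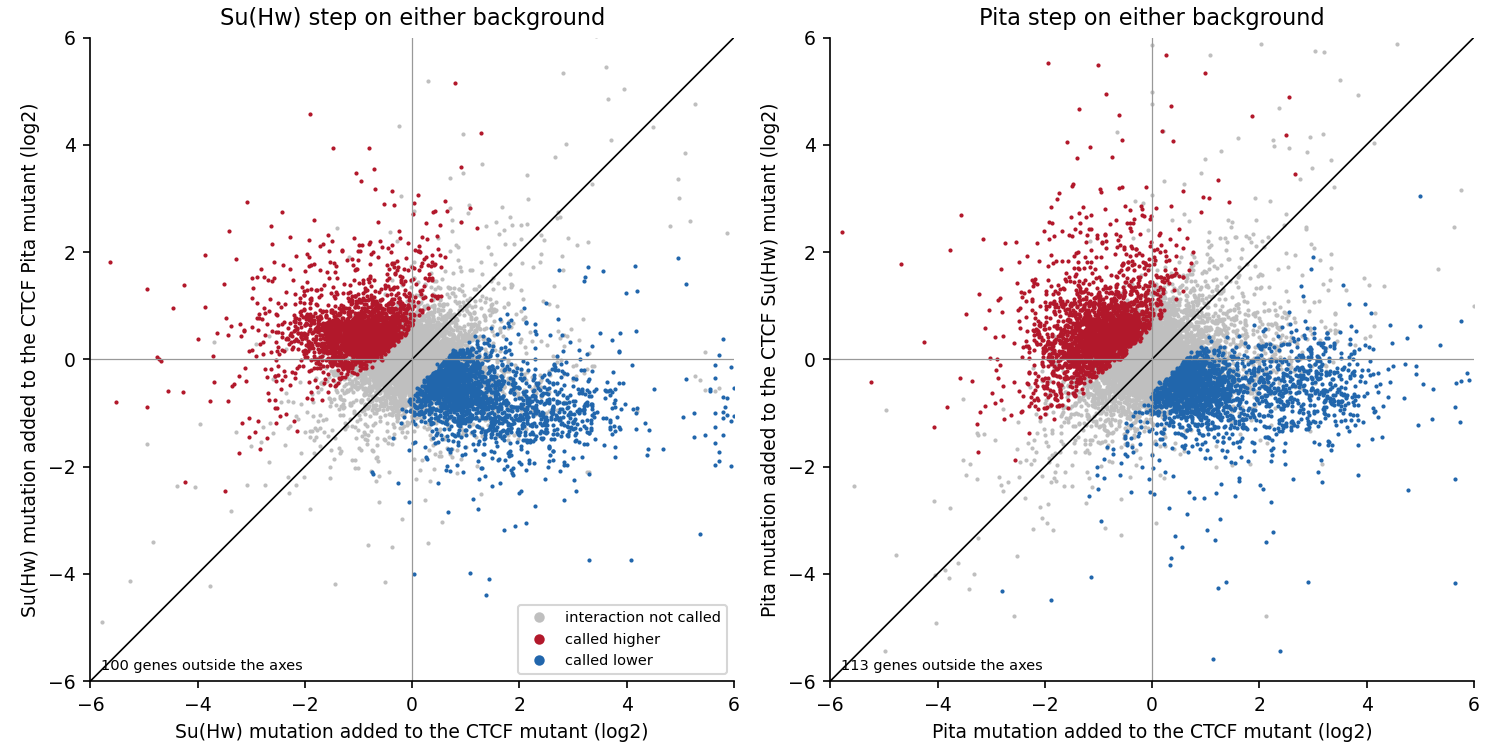
Log2 change with the Su(Hw) mutation (left) and the Pita mutation (right), added to the CTCF mutant (horizontal axis) and to the CTCF mutant that carries the other mutation (vertical axis), for 10585 tested genes. Genes on the diagonal have no interaction, red and blue dots are the 2457 genes called higher and 2170 called lower, and called genes lie mostly in the quadrants and along the axis where the step on the CTCF mutant is large and the other is small or opposite.

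Among the called genes, the triple mutant stood above all 6 other libraries for 338 genes and below them for 190. The 338 are 7.30% of the called genes, while 8.09% of all tested genes had the triple mutant above, and parentheses give these shares in the same order, as for the 190 below (4.11% and 5.64%). The CTCF Su(Hw) mutant stood above for 583 (12.6% and 11.1%) and below for 806 (17.4% and 11.5%). The CTCF Pita mutant stood above for 711 (15.4% and 11.5%) and below for 663 (14.3% and 9.32%). The CTCF mutant stood above for 1487 (32.1% and 21.2%) and below for 1080 (23.3% and 17.7%), and it stood apart most often over all tested genes too. Lip3 and Arc1 are among the 338 with the triple mutant above.

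Exon length tracked the interaction. Genes were split into 10 bins of equal size by summed exon length. In the bin of the shortest genes (73 to 780 bases) the median interaction was 0.99, with 41.6% of genes called higher and 9.71% lower. In the bin of the longest (5691 bases and more) it was -0.94, with 1.43% called higher and 57.6% lower, and the medians of the bins between fell in order of length. With offsets that remove a shift common to genes of like length, another alternative chosen after seeing the data, 3243 genes were called, 1762 higher and 1481 lower. Medians with these offsets stand beside those of the gene groups below. The part of exon length in the results was not tested beyond this fit.

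**Figure D3:**
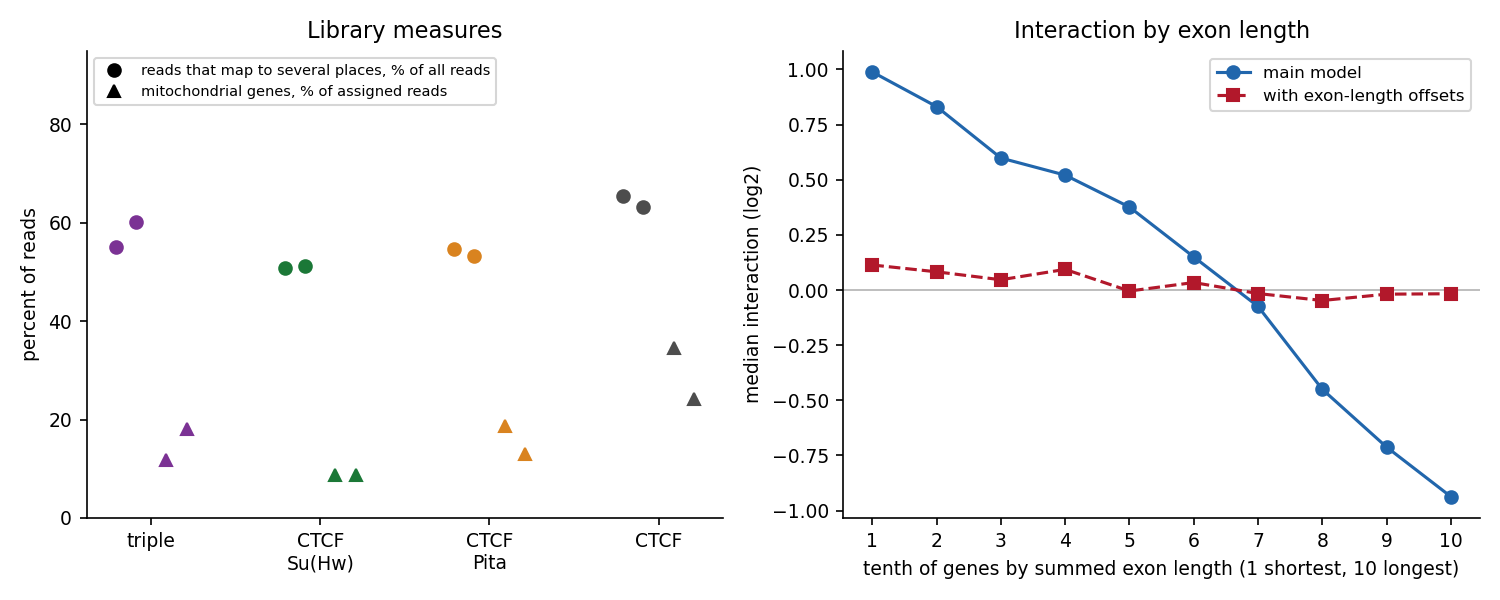
Left, the percentage of reads that map to several places (circles) and of assigned reads on mitochondrial genes (triangles) in each library of the 4 genotypes, with the CTCF mutant highest in both. Right, the median interaction on the log2 scale in 10 bins of genes by summed exon length, which falls to -0.94 in the bin of the longest, against 0.99 in that of the shortest (circles), and lies near 0 with exon-length offsets (squares).

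Genes of digestion were among the groups farthest above additivity. Counts of called genes in this and every list below stand beside 23.2% called higher and 20.5% called lower over all tested genes. Of 50 tested digestive enzyme genes of the gut, 30 were called higher and 3 lower, with a median interaction of 2.02 beside -0.02 for all genes. The median was 1.27 with exon-length offsets, 0.53 under library totals and 0.01 with the multimapping covariate. The Jonah protease gene Jon44E (FBgn0001285; dm6 2R, 8691448 to 8692844) had 4371 and 6634 CPM in triple, 219 and 216 CPM in CTCF Su(Hw), 615 and 820.4 CPM in CTCF Pita and 2144 and 1543 CPM in CTCF mutants. It was highest in the triple mutant and lowest in the CTCF Su(Hw) mutant, with no overlap of groups. The interaction of Jon44E was 6.02 (SE 0.41, adjusted p = 3.15e-05). The trypsin gene thetaTry followed the same order for the doubles, with 234 and 407 CPM in triple, 23.9 and 23.4 CPM in CTCF Su(Hw), 108 and 66.8 CPM in CTCF Pita and 269.8 and 192 CPM in CTCF mutants (interaction 5.16, SE 0.44, adjusted p = 0.00016), and its triple and CTCF mutants overlapped. Jon25Bii was highest in the CTCF mutant instead. It had 809 and 1859 CPM in triple, 418 and 408 CPM in CTCF Su(Hw), 548 and 281 CPM in CTCF Pita and 3504 and 2349.5 CPM in CTCF mutants, with an interaction of 4.51 (SE 0.59, adjusted p = 0.000593). The maltase gene Mal-A7 went the other way. It stood at 2.84 and 5.45 CPM in triple, 26.1 and 27.1 CPM in CTCF Su(Hw), 0.881 and 1.17 CPM in CTCF Pita and 1.19 and 0.527 CPM in CTCF mutants, and was high in the CTCF Su(Hw) mutant alone. The interaction of Mal-A7 was -3.07 (SE 0.67, adjusted p = 0.00498). In whole larvae, fewer gut cells and less RNA per gut cell cannot be told apart, and this holds for every tissue below. The Su(Hw) step on this list had a median of 1.17 on the CTCF Pita background and -1.16 on the CTCF background, and the Pita step 1.34 on the CTCF Su(Hw) and -0.98 on the CTCF background.

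Genes of protein synthesis and respiration lay above additivity too. All but 3 of 81 cytosolic ribosomal protein genes were called higher and none lower (median 2.11, 1.41 with exon-length offsets, 0.62 under library totals and 0.27 with the multimapping covariate). RpL36 stood at 964 and 1584 CPM in triple, 526 and 523 CPM in CTCF Su(Hw), 834 and 737 CPM in CTCF Pita and 3219 and 2296 CPM in CTCF mutants. The CTCF mutant was highest, the doubles lowest, and the triple mutant between them. The interaction of RpL36 was 3.09 (SE 0.38, adjusted p = 0.000517). RpL23 (2.91) and RpL9 (2.86) had the same order. Of 70 mitochondrial ribosomal protein genes, 59 were called higher and none lower (median 1.34 and, with exon-length offsets, 0.60), though the median turned to -0.11 under library totals. Examples are mRpL42 (12.2 and 12.5 CPM in triple, 9.11 and 9.47 CPM in CTCF Su(Hw), 10.6 and 8.70 CPM in CTCF Pita and 38.6 and 44.5 CPM in CTCF mutants; interaction 2.52, SE 0.25, adjusted p = 0.000255) and mRpL49. The interaction of mRpL49 was 2.94 (SE 0.42, adjusted p = 0.00074).

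All 14 tested mitochondrially encoded genes were called higher (median 3.39, 2.65 with exon-length offsets and 1.83 under library totals), but the median turned to -1.38 with the multimapping covariate, beside the mitochondrial share of reads given above. For mt:ND2, a complex I subunit gene, the libraries held 18.2 and 62.3 CPM in triple, 7.23 and 9.28 CPM in CTCF Su(Hw), 27.6 and 13.5 CPM in CTCF Pita and 239 and 123 CPM in CTCF mutants, with the CTCF mutant above all others. The interaction of mt:ND2 was 5.40 (SE 0.77, adjusted p = 0.000735). The small ribosomal RNA of mitochondria, mt:srRNA, had 881 and 4359 CPM in triple, 412 and 404 CPM in CTCF Su(Hw), 1312 and 812 CPM in CTCF Pita and 17529 and 7724 CPM in CTCF mutants. The interaction of mt:srRNA was 6.26 (SE 0.92, adjusted p = 0.00081). Nuclear genes of oxidative phosphorylation were called higher for 60 and lower for 6 of 77 (median 1.81, 1.19 with exon-length offsets and 0.32 under library totals). ATPsynbeta, of the ATP synthase, stood at 1463 and 2144 CPM in triple, 1857 and 1816 CPM in CTCF Su(Hw), 1641 and 1488 CPM in CTCF Pita and 6014 and 5192 CPM in CTCF mutants (interaction 1.81, SE 0.33, adjusted p = 0.00219, and not called under library totals with adjusted p = 0.238). The members called lower differ from these: COX4L, a paralog of a complex IV subunit gene, had 2.95 and 3.63 CPM in triple, 3.19 and 4.16 CPM in CTCF Su(Hw), 7.30 and 6.06 CPM in CTCF Pita and 0 and 1.05 CPM in CTCF mutants and so was lowest in the CTCF mutant (interaction -3.73, SE 0.75, adjusted p = 0.00329, and -8.93 without CTCF 2). Proteasome subunit genes were called higher for 17 of 31 and lower for none (median 0.76, 0.28 with exon-length offsets), with a median of -0.71 under library totals.

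**Figure D4:**
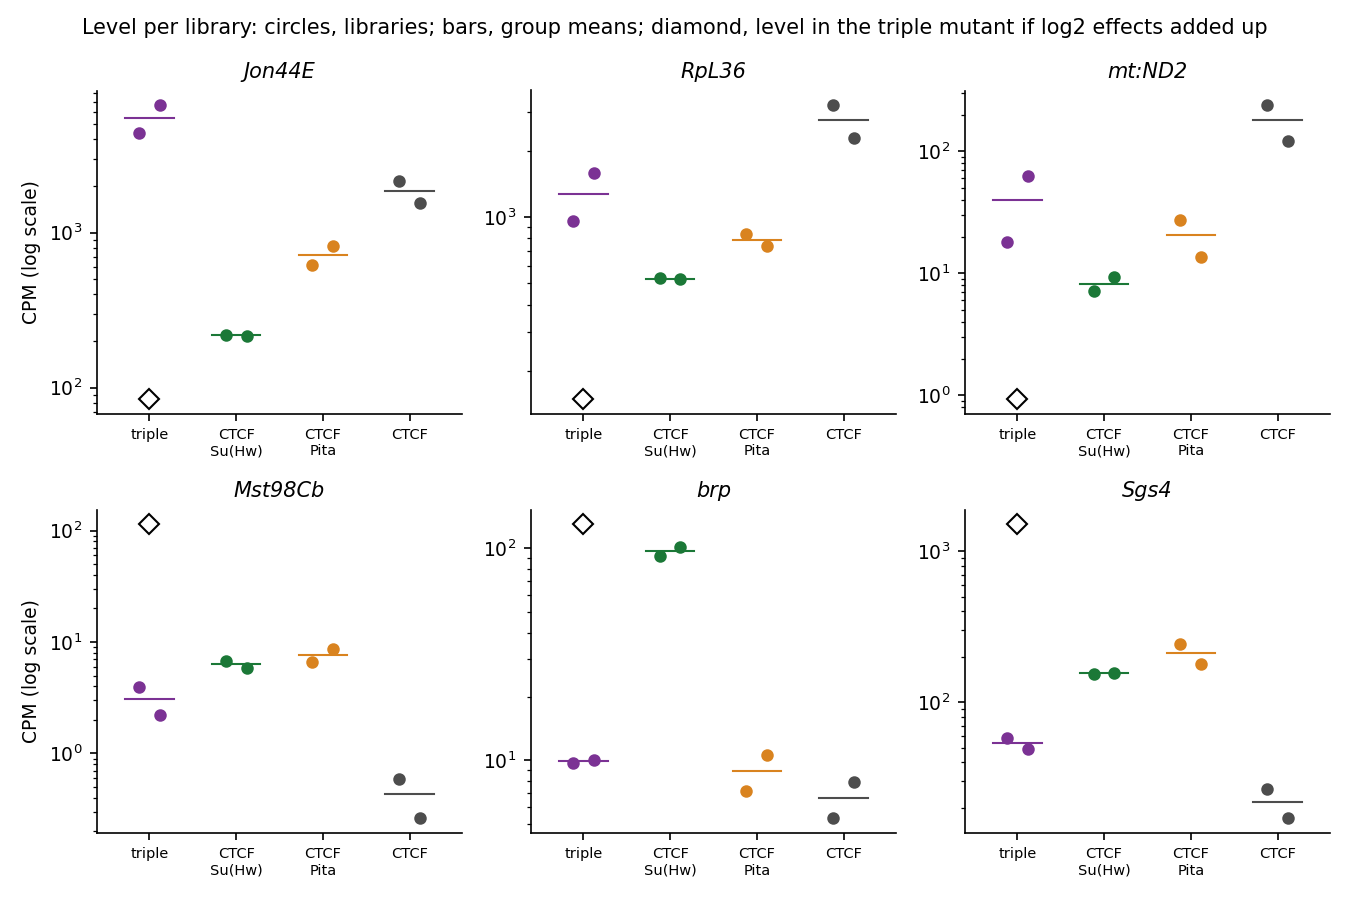
CPM on a log scale per library (circles) and group mean (bars) for a gene of each of 6 groups, in the triple, CTCF Su(Hw), CTCF Pita and CTCF mutants from left to right. The additive level (diamond) lies below the triple mutant for Jon44E, RpL36 and mt:ND2, and above it for Mst98Cb, brp and Sgs4, whose interactions are -5.12, -3.71 and -4.81.

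Testis genes had the lowest median of the 33 lists. Of 39 tested genes 26 were called lower and none higher (median -3.10, and -3.63 with exon-length offsets). With the multimapping covariate the median was -0.69. Mst98Cb, a sperm-tail protein gene, had 3.93 and 2.22 CPM in triple, 6.76 and 5.90 CPM in CTCF Su(Hw), 6.67 and 8.70 CPM in CTCF Pita and 0.594 and 0.263 CPM in CTCF mutants. The CTCF mutant was lowest and the doubles highest, with the triple mutant between. The interaction of Mst98Cb was -5.12 (SE 0.63, adjusted p = 0.000516). The sperm leucyl aminopeptidase genes followed, S-Lap1 with 13.6 and 8.47 CPM in triple, 25.1 and 25.2 CPM in CTCF Su(Hw), 24.3 and 33.7 CPM in CTCF Pita and 2.97 and 4.21 CPM in CTCF mutants (interaction -4.15, SE 0.40, adjusted p = 0.000253), S-Lap3 with an interaction of -4.16 and loopin-1 with -3.98. Summed over the list, the testis genes stood at 308 and 242 CPM in triple, 367 and 363 CPM in CTCF Su(Hw), 401 and 492 CPM in CTCF Pita and 152 and 173 CPM in CTCF mutants. Germline and piRNA genes were called lower for 5 and higher for 1 of 24 (median -0.44, -0.14 with exon-length offsets). The male-specific RNAs lncRNA:roX1 and lncRNA:roX2 were looked at after their values were seen. lncRNA:roX1 had 263 and 929 CPM in triple, 209.9 and 249 CPM in CTCF Su(Hw), 366 and 376 CPM in CTCF Pita and 349 and 439 CPM in CTCF mutants and was not called (1.46, adjusted p = 0.0748), with libraries of the triple mutant far apart. Its value was 2.06 and called without triple 1, and 0.29 without triple 2. lncRNA:roX2 had 9.39 and 24.6 CPM in triple, 1.88 and 2.80 CPM in CTCF Su(Hw), 10.4 and 8.70 CPM in CTCF Pita and 21.7 and 13.4 CPM in CTCF mutants, lowest in the CTCF Su(Hw) mutant, and was called higher (interaction 3.67, SE 0.62, adjusted p = 0.00146).

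Neuronal genes lay below additivity, and their summed exons had a median length of 7779 bases. Of 35 genes, 21 were called lower and none higher (median -1.10), but with exon-length offsets 7 were and the median was -0.28. The active zone gene brp (FBgn0259246; dm6 2R, 9503765 to 9541565) had 9.72 and 10.1 CPM in triple, 91.7 and 102 CPM in CTCF Su(Hw), 7.17 and 10.6 CPM in CTCF Pita and 5.35 and 7.90 CPM in CTCF mutants. The CTCF Su(Hw) mutant stood far above the other 3 genotypes, which lay close to each other (interaction -3.71, SE 0.34, adjusted p = 0.000234, and -2.74 with exon-length offsets). Wnt2 (dm6 2R, 9494166 to 9503188), given below, ends just before brp on the same strand and was also high in the CTCF Su(Hw) mutant alone. Whether the 2 changes are linked was not tested. The acetylcholine receptor subunit gene nAChRalpha7 had the same form, with 1.75 and 2.02 CPM in triple, 23.3 and 25.3 CPM in CTCF Su(Hw), 2.77 and 2.25 CPM in CTCF Pita and 0.891 and 2.90 CPM in CTCF mutants. The interaction of nAChRalpha7 was -4.05 (SE 0.52, adjusted p = 0.000538). The ELAV-family gene fne was instead high in both doubles. It had 7.10 and 4.44 CPM in triple, 13.1 and 13.4 CPM in CTCF Su(Hw), 26.8 and 20.7 CPM in CTCF Pita and 2.08 and 5.53 CPM in CTCF mutants, with an interaction of -3.75 (SE 0.46, adjusted p = 0.000516). Among neuropeptide and gut peptide genes 10 of 24 were called higher and 3 lower, with a median of 0.75 that turned to -0.11 with exon-length offsets and to -0.65 under library totals.

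Genes of the cuticle were higher than additive for 27 and lower for none of 62 (median 1.03, 0.38 with exon-length offsets), with a median of -0.38 under library totals. Lcp65Ae, a larval cuticle protein gene, stood at 2.73 and 12.7 CPM in triple, 8.92 and 9.95 CPM in CTCF Su(Hw), 8.30 and 5.38 CPM in CTCF Pita and 234 and 277 CPM in CTCF mutants. It was high in the CTCF mutant and far lower in every other library. The interaction of Lcp65Ae was 4.80 (SE 0.68, adjusted p = 0.000727). Cpr78Cc had 20.6 and 16.5 CPM in triple, 22.9 and 24.5 CPM in CTCF Su(Hw), 17.2 and 16.6 CPM in CTCF Pita and 116 and 132 CPM in CTCF mutants (interaction 2.53, SE 0.24, adjusted p = 0.000253) and Cpr49Af 166 and 153 CPM in triple, 118 and 113 CPM in CTCF Su(Hw), 143 and 135 CPM in CTCF Pita and 522 and 490.0 CPM in CTCF mutants (interaction 2.33, SE 0.23, adjusted p = 0.000253), again with the CTCF mutant above and the other 3 genotypes close together. Of 3 tested Osiris genes, which act in cuticle-forming cells, 1 was called higher (median -0.54, -0.50 with exon-length offsets). This gene, Osi2, had 2 reads in triple, 0 in CTCF Su(Hw), 32 in CTCF Pita and 35 in CTCF mutants. Its call (adjusted p = 0.0453) was lost with any 1 of the 8 libraries left out (log2 values of 4.48 to 5.12), with the CTCF Su(Hw) libraries summed, with DESeq2, under library totals, with the replicate block and with exon-length offsets.

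Detoxification genes that were called were mostly higher than additive. The counts were 28 higher and 5 lower of 73 cytochrome P450 genes (median 0.70, 0.48 with exon-length offsets), 16 and 1 of 31 glutathione S-transferases (1.00 and 0.38) and 12 and 1 of 29 UDP-glycosyltransferases (0.86 and 0.52). All 3 medians were below 0 under library totals (-0.70, -0.45 and -0.60). Cyp6d2 was high in the triple mutant alone, with 39.1 and 36.5 CPM in triple, 7.04 and 8.02 CPM in CTCF Su(Hw), 6.67 and 3.81 CPM in CTCF Pita and 10.4 and 8.69 CPM in CTCF mutants. The interaction of Cyp6d2 was 3.21 (SE 0.36, adjusted p = 0.000411). Ugt37A3 had 159 and 144 CPM in triple, 53.9 and 50.7 CPM in CTCF Su(Hw), 75.9 and 53.3 CPM in CTCF Pita and 132 and 123 CPM in CTCF mutants (interaction 2.52, SE 0.27, adjusted p = 0.000321), with both doubles low. Metallothioneins, which bind copper and zinc, were called higher for 4 of 5 (median 1.94, 1.04 with exon-length offsets). The copper importer gene Ctr1B stood at 85.7 and 131 CPM in triple, 19.0 and 17.9 CPM in CTCF Su(Hw), 77.3 and 79.7 CPM in CTCF Pita and 250.5 and 149 CPM in CTCF mutants, low in the CTCF Su(Hw) mutant alone. The interaction of Ctr1B was 3.90 (SE 0.38, adjusted p = 0.000253).

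Metabolic genes were called in both directions. Glycolysis genes were called higher for 6 and lower for 1 of 13 (median 0.86, 0.47 with exon-length offsets and -0.60 under library totals). Enolase, Eno, had 1644 and 1807 CPM in triple, 2227 and 2153 CPM in CTCF Su(Hw), 1511 and 1573 CPM in CTCF Pita and 6165 and 6160.2 CPM in CTCF mutants, with the CTCF mutant above all others (interaction 1.65, SE 0.28, adjusted p = 0.0015, and adjusted p = 0.51 under library totals). The hexokinase gene Hex-A, the first enzyme of the pathway, ran the other way with 147 and 91.2 CPM in triple, 228 and 237 CPM in CTCF Su(Hw), 165 and 170.0 CPM in CTCF Pita and 69.5 and 95.8 CPM in CTCF mutants. The interaction of Hex-A was -1.97 (SE 0.33, adjusted p = 0.00146). Of 19 genes of lipid synthesis and breakdown 6 were called higher and 4 lower (median 0.23, 0.42 with exon-length offsets and -1.21 under library totals). Seipin, needed to form lipid droplets, was low in both doubles, with 72.3 and 64.5 CPM in triple, 29.0 and 26.7 CPM in CTCF Su(Hw), 17.9 and 17.3 CPM in CTCF Pita and 52.0 and 42.7 CPM in CTCF mutants. The interaction of Seipin was 2.72 (SE 0.24, adjusted p = 0.000165). Muscle genes were called higher for 9 and lower for 4 of 23 (median 0.41, 0.49 with exon-length offsets and -0.97 under library totals), among them the troponin C gene TpnC25D (43.6 and 64.7 CPM in triple, 46.8 and 41.8 CPM in CTCF Su(Hw), 54.5 and 40.4 CPM in CTCF Pita and 209.8 and 211 CPM in CTCF mutants; interaction 2.43, SE 0.30, adjusted p = 0.000518) and Mlp60A (2.29). Of 22 genes of Malpighian tubules and osmotic control 9 were called higher and 2 lower (median 0.65, 0.69 with exon-length offsets and -0.80 under library totals), such as the proton pump subunit gene Vha36-1 (2.24, adjusted p = 0.000538).

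Glue and ecdysone genes, which mark the end of larval life, did not move as 1 group. Of 12 salivary glue genes 2 were called higher and 4 lower (median 0.69, turned to -0.26 with exon-length offsets, -0.87 under library totals and -5.16 with the multimapping covariate). Sgs4 had 58.4 and 49.2 CPM in triple, 155 and 157 CPM in CTCF Su(Hw), 243 and 181 CPM in CTCF Pita and 26.7 and 17.1 CPM in CTCF mutants. The doubles were above the triple mutant, and the CTCF mutant was lowest. The interaction of Sgs4 was -4.81 (SE 0.33, adjusted p = 3.15e-05). Sgs1 was highest in the CTCF Pita mutant. It had 24.9 and 21.8 CPM in triple, 38.0 and 41.9 CPM in CTCF Su(Hw), 126 and 78.7 CPM in CTCF Pita and 18.4 and 3.95 CPM in CTCF mutants, with an interaction of -3.99 (SE 0.61, adjusted p = 0.000916). Of 25 ecdysone response genes 10 were called lower and 1 higher (median -0.90, -0.32 with exon-length offsets). Relative to that of all genes this median was -0.88, and -0.43 without CTCF Pita 1. Fbp1, which encodes a receptor that takes storage proteins into the fat body, had 1349.7 and 1907 CPM in triple, 2703 and 2627 CPM in CTCF Su(Hw), 3699 and 1658 CPM in CTCF Pita and 435 and 870.4 CPM in CTCF mutants. The interaction of Fbp1 was -2.75 (SE 0.57, adjusted p = 0.00387). The fat body list as a whole had 2 genes called higher and 5 lower of 17 (median -0.11, 0.22 with exon-length offsets), and hemocyte markers had 5 and 2 of 18 (median -0.09, 0.21 with exon-length offsets).

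Immune and stress genes gave few calls. Antimicrobial peptides and peptidoglycan recognition proteins were called higher for 5 and lower for 3 of 27 (median 0.97, 0.03 with exon-length offsets, -0.58 under library totals and -3.22 with the multimapping covariate). Summed, this list stood at 1402 and 3439.9 CPM in triple, 578 and 603 CPM in CTCF Su(Hw), 1059 and 925 CPM in CTCF Pita and 465 and 371 CPM in CTCF mutants, so the triple mutant's libraries lay apart from each other. Without triple 2 the median minus that of all genes was 0.04, against 0.99 with it. SPE, the protease that activates the Toll ligand, was low in both doubles, with 31.2 and 47.8 CPM in triple, 12.0 and 9.95 CPM in CTCF Su(Hw), 16.0 and 15.0 CPM in CTCF Pita and 43.4 and 47.9 CPM in CTCF mutants. The interaction of SPE was 3.39 (SE 0.31, adjusted p = 0.000234). Tep1, a complement-like protein gene chosen after its values were seen, was high in the triple mutant alone (99.1 and 88.3 CPM in triple, 10.4 and 8.02 CPM in CTCF Su(Hw), 14.6 and 12.9 CPM in CTCF Pita and 6.24 and 5.53 CPM in CTCF mutants; interaction 2.12, SE 0.31, adjusted p = 0.000748, not called under library totals with adjusted p = 0.172). None of 3 tested Turandot genes was called (median 0.78, -0.11 with exon-length offsets). Of 17 heat shock genes 2 were called higher and 2 lower (median -1.26, -1.32 with exon-length offsets). Relative to that of all genes the heat shock median was -1.24, but -0.02 without CTCF Pita 1, -0.68 without CTCF 2 and -0.73 without triple 1. Of 12 cell death genes 3 were called higher and 2 lower (median -0.19, 0.03 with exon-length offsets). The caspase gene Damm had 104 and 99.8 CPM in triple, 19.3 and 20.9 CPM in CTCF Su(Hw), 38.1 and 54.1 CPM in CTCF Pita and 108 and 62.4 CPM in CTCF mutants, with the CTCF Su(Hw) mutant lowest. The interaction of Damm was 3.22 (SE 0.36, adjusted p = 0.000408).

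Regulators of development lay slightly below additivity. Of 6 tested Hox genes Ubx, abd-A and Antp were called lower (-1.22, -0.80 and -0.88), but the median of -0.84 became 0.03 with exon-length offsets, and all 3 calls were lost with them. All 3 were lost too with the CTCF Su(Hw) libraries summed. The call of Antp was also lost without CTCF 2, CTCF Pita 1, CTCF Su(Hw) 2 or triple 2 (-1.09 to -0.69 with 1 library left out), that of Ubx without CTCF 2 or either CTCF Su(Hw) library (-1.61 to -0.91), and that of abd-A without CTCF 1 or CTCF Su(Hw) 2 (-0.93 to -0.72). The Ubx mRNA stood at 7.10 and 4.84 CPM in triple, 9.67 and 9.47 CPM in CTCF Su(Hw), 12.7 and 11.7 CPM in CTCF Pita and 10.1 and 6.32 CPM in CTCF mutants, with the CTCF Pita mutant above all other libraries. Abd-B was not called (0.40, adjusted p = 0.267). Of 26 patterning transcription factors 10 were called lower and 2 higher (median -0.70, -0.42 with exon-length offsets). The Hox cofactor gene hth had 72.8 and 42.0 CPM in triple, 105 and 117 CPM in CTCF Su(Hw), 149.9 and 126 CPM in CTCF Pita and 55.9 and 62.9 CPM in CTCF mutants. The interaction of hth was -2.15 (SE 0.33, adjusted p = 0.00102). Of 24 DNA replication genes 1 was called in each direction (median 0.15, -0.10 with exon-length offsets), and of 11 adult eye genes 2 in each (median -0.63, -0.30 with exon-length offsets).

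Insulator and architectural protein genes were called lower for 6 and higher for none of 26 (median -0.16, -0.12 with exon-length offsets). Over all tested genes 20.5% were called lower and 23.2% higher, so the share called lower is near that of all genes. Cp190 had 47.7 and 15.1 CPM in triple, 49.8 and 51.0 CPM in CTCF Su(Hw), 50.3 and 56.2 CPM in CTCF Pita and 26.7 and 24.7 CPM in CTCF mutants. The CTCF Su(Hw) and CTCF Pita mutants stood above the CTCF mutant, and the libraries of the triple mutant lay on either side of it. The call (interaction -1.69, SE 0.53, adjusted p = 0.026) was lost without CTCF 1, CTCF 2, CTCF Pita 2 or either CTCF Su(Hw) library, and with exon-length offsets. The call of Cp190 was also lost with the CTCF Su(Hw) libraries summed and with the robust setting of edgeR. Its value was -1.12 without triple 2 and -2.83 without triple 1. The gene mod(mdg4), which encodes a partner of Su(Hw) and CP190 at gypsy, was not called (-0.04, adjusted p = 0.899).

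By chromosome, 21.7% to 25.1% of tested genes on the X and the large autosome arms were called higher and 19.0% to 23.1% lower. Chromosome 4, whose 77 tested genes are long (median 4385 exon bases), had 5 called higher and 30 lower, and 9 higher and 3 lower with exon-length offsets.

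Other genes with small p-values follow the forms above. Higher than additive were Srg3 with 25.9 and 34.5 CPM in triple, 6.39 and 6.18 CPM in CTCF Su(Hw), 9.19 and 12.2 CPM in CTCF Pita and 41.6 and 39.8 CPM in CTCF mutants (interaction 4.16, SE 0.30, adjusted p = 4.05e-05), fiz with 97.1 and 111 CPM in triple, 52.1 and 57.7 CPM in CTCF Su(Hw), 29.1 and 32.9 CPM in CTCF Pita and 153 and 139.8 CPM in CTCF mutants (interaction 3.16, SE 0.23, adjusted p = 4.48e-05) and Cbs, of cysteine synthesis (interaction 2.22, SE 0.21, adjusted p = 0.000253, lost under library totals with adjusted p = 0.0524). All 3 were lower in both doubles than in the other 2 genotypes. Below additivity, the signalling gene Wnt2 had 1.31 and 2.02 CPM in triple, 20.8 and 24.8 CPM in CTCF Su(Hw), 3.27 and 2.44 CPM in CTCF Pita and 2.08 and 2.37 CPM in CTCF mutants and was high in the CTCF Su(Hw) mutant alone. The interaction of Wnt2, the neighbour of brp, was -4.18 (SE 0.45, adjusted p = 0.000339). The growth factor gene miple2 had 12.4 and 4.84 CPM in triple, 93.2 and 95.1 CPM in CTCF Su(Hw), 25.9 and 18.8 CPM in CTCF Pita and 8.62 and 11.1 CPM in CTCF mutants (interaction -4.54, SE 0.47, adjusted p = 0.000321), and the peroxiredoxin gene Prx6c 5.02 and 3.03 CPM in triple, 21.7 and 20.6 CPM in CTCF Su(Hw), 11.1 and 10.7 CPM in CTCF Pita and 3.57 and 5.27 CPM in CTCF mutants. The interaction of Prx6c was -3.61 (SE 0.36, adjusted p = 0.000272). The mucin gene Muc96D was high in both doubles with 289 and 129 CPM in triple, 612 and 713 CPM in CTCF Su(Hw), 775 and 815 CPM in CTCF Pita and 163 and 168 CPM in CTCF mutants (interaction -3.92, SE 0.45, adjusted p = 0.000424), as was the growth regulator mei-P26 (34.4 and 24.8 CPM in triple, 73.3 and 88.9 CPM in CTCF Su(Hw), 51.8 and 56.6 CPM in CTCF Pita and 22.6 and 25.8 CPM in CTCF mutants; interaction -2.60, SE 0.28, adjusted p = 0.000323).

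A few genes had a genotype with no read at all. CG32845 had 10 reads in triple, 274 in CTCF Su(Hw), 15 in CTCF Pita and 0 in CTCF mutants. Its interaction was at most -5.18 when 3 reads over the group stand for 0 and the other counts are held as observed. The bounds below are of the same kind. CG32845 (dm6 3L, 271420 to 273391) lies on the opposite strand within miple2 (271200 to 275018), which was also highest in the CTCF Su(Hw) mutant. The unstranded counts do not separate these genes, so they are not 2 separate results. LManIV had 21 reads in triple, 187 in CTCF Su(Hw), 26 in CTCF Pita and 0 in CTCF mutants, an interaction of at most -4.35. eIF3d2 had 53 reads in triple, 51 in CTCF Su(Hw), 110 in CTCF Pita and 0 in CTCF mutants, an interaction of at most -3.23. The RNA lncRNA:CR44316 had 221 reads in triple, 0 in CTCF Su(Hw), 152 in CTCF Pita and 142 in CTCF mutants, an interaction of at least 8.02.

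**Figure D5:**
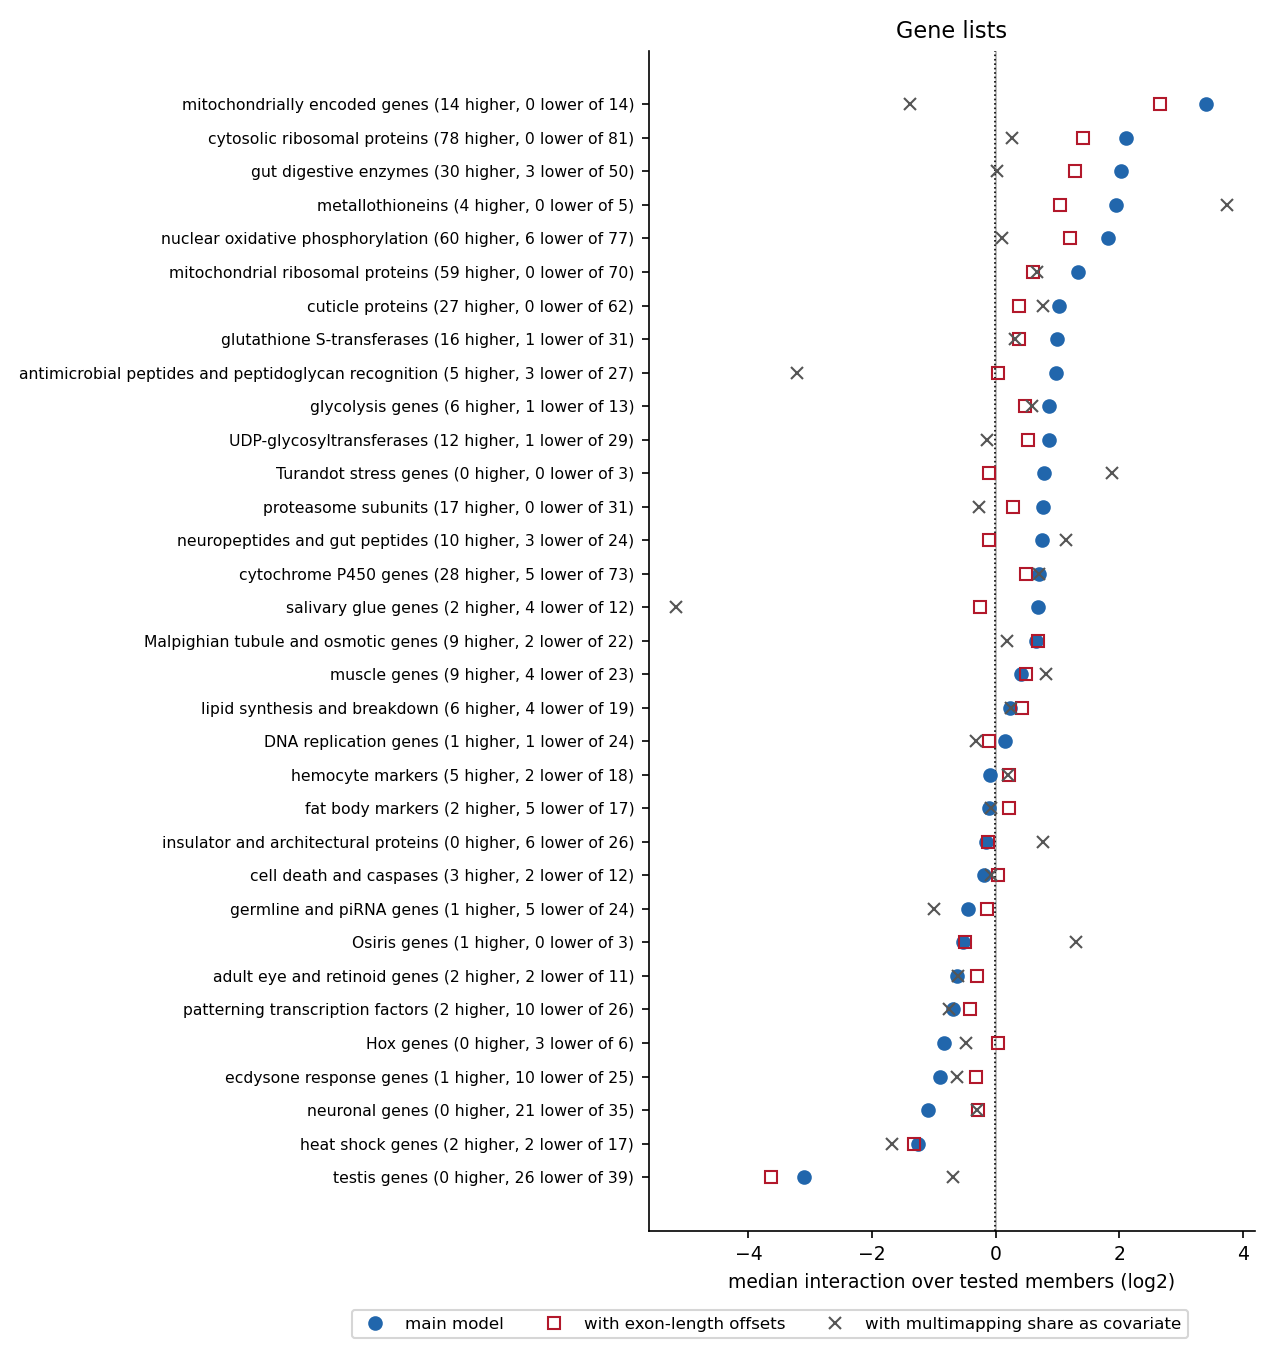
Median interaction (log2) over the tested members of 33 gene lists in the main model (filled circles), with exon-length offsets (squares) and with the multimapping share as covariate (crosses), with the number called in each direction beside the name. Mitochondrially encoded genes have the highest median (3.39, and -1.38 with the covariate) and testis genes the lowest (-3.10), and the dotted line is the median of all genes; under library totals (not drawn) that line lies at -1.45.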

How the data were processed

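RNA from whole third-instar larvae was sequenced as paired reads after oligo(dT) selection, per the labels' protocols. The submitters' processing notes name cutadapt, STAR and the dm6 build, with versions not given in the sources used here. The authors deposited read counts per gene, unstranded and for each strand, which leave out reads that map to several places. The unstranded counts were used here, and an alternative summed the counts of the strands. Of 17735 gene IDs 138 had no name in the reference annotation and keep their ID. Genes that overlap or lie close on opposite strands cannot be separated in the unstranded counts.

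From the deposited counts of 8 libraries, 2 in each of 4 groups, the interaction was tested with edgeR 4.0.16 (R 4.3.3): TMM scaling, filterByExpr, 1 coefficient per group, the quasi-likelihood F-test with 4 residual degrees of freedom, and Benjamini-Hochberg adjustment over 10585 genes with a threshold of 0.05. The biological coefficient of variation was 16.1%. Nothing in the labels says that replicates are separate cultures or animals, so p-values measure the spread between these libraries, which may be technical. For a single value, an exact permutation test of 2 against 2 libraries cannot go below 0.333 and was not used. PCR reads are not independent molecules, so bounds from 3 reads cover counting error only. They cover that of the empty genotype alone, as the counts of the other genotypes are held as observed. On simulated data with 10585 genes, 17.5%, 84.1% and 97.1% of interactions of size 1, 2 and 3 (log2) were recovered, with 11 false calls. The simulation gave each gene 1 dispersion for all groups and no shift of multimapping reads, and placed interactions only in genes with more reads. The real groups differ in replicate spread (chi-square per degree of freedom 1.82 to 71.1), so these rates and false calls do not describe the real libraries.

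The members and gene lists were chosen with earlier results of these data known. Genes named are those of at least 5 CPM in 1 group with the smallest p in each direction (12 each), the 3 largest values in each direction, the mutated, architectural and Hox genes, w, and up to 3 called members of each list with the largest values. Genes outside that rule, named after their values were seen, are the 7 called in every alternative, their neighbours, the genes with an empty genotype, genes shown per group pattern, Eno, ATPsynbeta, Tep1, lncRNA:roX1 and lncRNA:roX2. The 22 alternatives include DESeq2 1.42.0, and 2 of them were added after seeing the data. Promoter motifs were not analysed here.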

Additional observations from a re-analysis of the deposited data

Results flagged for a closer look

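The interaction test (edgeR quasi-likelihood, Benjamini-Hochberg adjustment) compares the change with a mutation between backgrounds, and called 4627 genes, 2457 above additivity and 2170 below it. With the share of multimapping reads as a covariate it called 21. Some genes were called in opposite directions in the steps on either background. With the Su(Hw) mutation, 261 genes fell on the CTCF Pita background and rose on the CTCF background, and 380 did the opposite. With the Pita mutation, 242 fell on the CTCF Su(Hw) background and rose on the CTCF background, and 471 did the opposite.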

How the results depend on the processing

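The 22 alternatives gave 21 to 6652 called genes, with 316 called higher and 6336 lower under library totals, and 7 higher and 14 lower with the multimapping covariate. With 1 library left out, 2918 to 5141 genes were called, 1592 to 2499 higher and 1326 to 2642 lower, taking the single library that remains to vary as the other genotypes do. The calls with exon-length offsets numbered 3243 and with DESeq2 3573, and 816 genes kept their call in the same direction in all alternatives but the multimapping covariate. The share called higher was 53.1% in the model as reported, 4.75% under library totals and 33.3% with the covariate.

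With the replicate block 4378 genes were called, 4319 of them also called without it. Deviations of same-numbered libraries correlated at -0.11 to 0.05, so the numbers are not shown to pair the libraries, and among the genes named the block lost the call of Osi2.

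With the covariate the sign turned for su(Hw) (1.51), CTCF (0.86), Cp190 (2.60), mod(mdg4) (0.33), Jon25Bii (-0.15), mRpL49 (-0.070), mt:srRNA (-2.32), mt:ND2 (-1.52), ATPsynbeta (-0.041), Hex-A (0.37), CG15253 (-0.71), lncRNA:roX1 (-3.33) and lncRNA:roX2 (-1.23). Relative to all genes, the list median turned for mitochondrially encoded genes (-1.52), oxidative phosphorylation (-0.040), proteasome (-0.42), UDP-glycosyltransferases (-0.28), gut enzymes (-0.12), insulator (0.63), antimicrobial (-3.36), Osiris (1.16), glue (-5.30), hemocyte (0.06) and DNA replication genes (-0.46). With exon-length offsets it turned for su(Hw) (0.27), mod(mdg4) (0.94, called), Antp (0.082) and the lists of Hox (0.0098), Turandot (-0.12), neuropeptide (-0.12), glue (-0.28), fat body (0.20), hemocyte (0.19), DNA replication (-0.12) and cell death genes (0.01). DNA replication genes also turned with at least 5 CPM in a group (-0.02). Under library totals it turned for pita (-0.86), Abd-B (-1.02) and lncRNA:roX1 (-0.082). With 1 library left out, su(Hw) ranged over -0.53 to 0.11 and mod(mdg4) over -0.17 to 0.080, and the median of the lipid list minus that of all genes over -0.031 to 0.40. The list medians of glue (-0.85 without triple 2 and -0.03 without CTCF 1), Osiris (0.15 without CTCF Pita 1), insulator (0.03 without triple 2) and cell death genes (0.05 without CTCF Pita 1 or triple 2) also turned. The medians of the glue, Osiris, insulator, cell death, antimicrobial, fat body, hemocyte, germline, DNA replication and adult eye lists lay nearer to that of all genes than the spread between replicates. The lipid median lay 0.25 from that of all genes, farther than its spread of 0.16. The cause of these turns was not tested. At this depth 1 read stood for up to 0.297 CPM.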

Other observations

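The wild-type libraries stand outside the contrast. Among the 7 genes called in every alternative they lay on the side of the CTCF mutant for those that set the CTCF mutant apart. In CPM of assigned reads, without further scaling, CG5966 had 127 and 122 in triple, 107 and 102 in CTCF Su(Hw), 135 and 134 in CTCF Pita, 4.64 and 4.94 in CTCF mutants and 4.20 and 3.82 in the wild type. On that scale CG11300 had 17.2 and 11.4 in triple, 3.65 and 3.35 in CTCF Su(Hw), 13.4 and 16.7 in CTCF Pita, 408 and 354 in CTCF mutants and 181 and 137 in the wild type. Lip3 had 373 and 320.0 in triple and 0.435 and 1.53 in the wild type, and Arc1 5852 and 4890.1 in triple and 701 and 689 in the wild type. CG17224 differed in form, as its wild-type values of 28.3 and 25.7 lay below the 47.7 and 37.2 of the triple and the 60.6 and 67.9 of the CTCF mutant.

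With 1 mean per genotype, the slope of the multimapping covariate comes from differences between libraries of the same genotype. The share differed most between triple 1 and triple 2 (55.2% and 60.2%), and the slope is carried over an interaction of 17.1 percentage points. These libraries also differed in summed CPM of the glue genes (2451 and 4998) and the antimicrobial list (1402 and 3440). The values below therefore lean on that pair. Of the 21 genes called with the multimapping covariate, 13 were not called in the model without it. They include the glue genes Sgs7 (-8.52, adjusted p = 0.00113, against 1.21, adjusted p = 0.302, without the covariate) and Sgs8 (-9.18 against 1.05) and the antimicrobial peptide genes DptB (-6.45 against 0.99), Def (-8.93 against 2.59) and Mtk (-8.63 against 0.03), by edgeR's quasi-likelihood test.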
